A study of Ovis aries with 16 samples.

Results

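COL1A2, COL3A1, DCN and FBLN1 encode extracellular matrix proteins of connective tissue, and TTR encodes transthyretin, the thyroid hormone carrier made by choroid plexus epithelium. They are 5 of the 981 genes that array probes could be named for, and were followed in the hypothalamus of 16 fetal sheep as markers of the meninges and of the choroid plexus. All array probes that the scanner files named or described as 1 of these 5 genes were taken, which gave 10 of the 15008 distinct probes: 1 for COL1A2, 4 for COL3A1, 2 for DCN, 2 for FBLN1 and 1 for TTR. All 10 were well above background on all 16 arrays, and all 10 were among the 12937 probes tested.

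The fetuses were studied at 124 to 128 of the 147 days of a full gestation, and all carried chronic catheters and were bled repeatedly during the study. There were 4 groups of 4 fetuses. In the estradiol+BCO group, estradiol (250 ug per day for 5 days) was followed by brachiocephalic occlusion (BCO), a 10 min closure of the artery that supplies the fetal head, and by 50 min of recovery. The estradiol group received the same estradiol and a sham occlusion, the BCO group received the occlusion without estradiol, and the control group received a sham occlusion without estradiol. Each array held total RNA of 1 fetus, and RNA came from undissociated tissue, so that fewer cells of a type and less RNA per cell cannot be told apart in any value below. Each level is the log2 of a probe's signal after the array's own 75th percentile was subtracted, a scale on which a difference of 1 is a doubling. They compare fetuses for 1 probe and do not rank one probe against another.

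Fibrillar collagens are the load-bearing fibres of connective tissue. In brain they lie mainly in the meninges and around vessels, where fibroblasts make them together with decorin and fibulins, while neurons and glia make little of them. COL1A2 encodes the alpha-2 chain of type I collagen, COL3A1 the chain of type III collagen, DCN the small proteoglycan decorin that coats collagen fibrils, and FBLN1 fibulin-1, a glycoprotein of basement membranes and elastic fibres. Choroid plexus epithelium lines tufts in the brain ventricles, makes cerebrospinal fluid and secretes transthyretin into it. In the adult brain TTR transcript is concentrated in that epithelium.

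Probe sequences are shown for both collagens because a collagen-like repeat can be read from them independently of their names. The repeat does not tell collagen genes apart. The single COL1A2 probe was listed under a gene number, and the brightest COL3A1 probe, A_70_P048191, under a sequence contig described by its likeness to the bovine type III chain. The collagen triple helix repeats a unit of 3 residues that starts with glycine, so its coding sequence carries a GGN codon every 9 bases. Those codons are in capitals here.
COL1A2 A_70_P024601: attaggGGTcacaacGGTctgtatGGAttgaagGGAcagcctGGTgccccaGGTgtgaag
COL3A1 A_70_P048191: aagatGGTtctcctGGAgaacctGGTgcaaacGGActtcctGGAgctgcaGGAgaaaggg
COL3A1 A_70_P006991: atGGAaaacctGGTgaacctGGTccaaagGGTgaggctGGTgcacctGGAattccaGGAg
All possible positions held GGN in these probes: 6 of 6, 6 of 6 and 7 of 7, in the order shown. Of the 15008 probes on the array 24 (0.16%) had the same unbroken repeat on the printed strand, 7 of them annotated as collagens or counted here. The other COL3A1 probes, A_70_P016307 and A_70_P016306, had 1 such codon each and shared 58 of their 60 bases.

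The FBLN1 probes show how far probes of 1 gene are separate measurements. They are offset by 4 bases and share the 56 bases in capitals.
FBLN1 A_70_P016566: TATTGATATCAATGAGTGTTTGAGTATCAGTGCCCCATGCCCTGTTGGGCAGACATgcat
FBLN1 A_70_P016567: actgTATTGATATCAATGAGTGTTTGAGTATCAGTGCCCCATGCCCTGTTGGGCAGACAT
Such probes repeat 1 measurement and are not independent. Among the 37 pairs of probes of different genes the longest shared run was 10 bases. Across the 16 arrays the FBLN1 pair correlated at r = 0.90, the DCN pair at 0.95 and the 6 COL3A1 pairs at 0.62 to 0.83. In the correlations the brightest probe stands for a gene. Where both DCN or both FBLN1 probes are given, the brighter comes first.

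Arrays sat on 2 slides that each held 2 arrays of every group (replicates 1 and 2 on slide 1, replicates 3 and 4 on slide 2). With the groups in the model 860 of the 12937 tested probes differed between slides at an adjusted p under 0.05 (limma). None of the 10 probes was among them. Between 77.3% and 86.4% of probes on an array were well above background.

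COL1A2 stood at -4.30, -3.31, -4.10 and -3.95 in estradiol+BCO fetuses, at -3.04, -2.74, -3.55 and -2.90 in estradiol fetuses, at -3.51, -3.79, -3.22 and -3.40 in BCO fetuses and at -3.48, -4.08, -3.29 and -2.97 in controls. The groups overlapped, with 3 of 4 estradiol+BCO fetuses below all estradiol and BCO fetuses and the other one within their range. Group means were -3.91 ± 0.43 with estradiol and BCO, -3.06 ± 0.35 with estradiol, -3.48 ± 0.24 with BCO and -3.46 ± 0.47 in controls (SD, n = 4 each). From highest to lowest the order was estradiol, control, BCO, estradiol+BCO, and the arrays of neighbours in that order overlapped.

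COL3A1, by A_70_P048191, stood at -3.75, -3.25, -3.53 and -3.34 in estradiol+BCO fetuses, at -2.84, -1.95, -3.26 and -2.51 in estradiol fetuses, at -2.66, -2.76, -2.79 and -2.48 in BCO fetuses and at -2.81, -3.54, -2.65 and -3.32 in controls. All 4 estradiol+BCO fetuses lay below all 4 BCO fetuses, 3 of them lay below all 4 estradiol fetuses, and they overlapped the controls. The means were -3.47 ± 0.22, -2.64 ± 0.55, -2.67 ± 0.14 and -3.08 ± 0.42 in estradiol+BCO, estradiol, BCO and control fetuses (SD, n = 4 each). Estradiol and BCO fetuses, next to each other at the top of the order, were nearly equal. The other 3 probes had means of -4.65, -4.65 and -4.82 in estradiol+BCO fetuses, -4.12, -4.13 and -4.46 in estradiol fetuses, -4.25, -4.29 and -4.41 in BCO fetuses and -4.25, -4.48 and -4.28 in controls (A_70_P016307, A_70_P016306 and A_70_P006991, in this order). The estradiol+BCO group was lowest by each of the 4 COL3A1 probes. With these 3 probes its arrays overlapped those of every other group.

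DCN stood at 1.22, 2.23, 1.67 and 1.41 in estradiol+BCO fetuses, at 2.27, 2.39, 1.43 and 2.07 in estradiol fetuses, at 1.68, 1.69, 2.25 and 1.57 in BCO fetuses and at 2.08, 1.22, 2.06 and 2.0 in controls. Its means were 1.63 ± 0.44, 2.04 ± 0.43, 1.80 ± 0.31 and 1.84 ± 0.42 (SD, n = 4 each) in the same order of groups, and all groups overlapped. The second DCN probe, A_70_P030252, ranged from -0.58 to 0.77 over the 16 arrays and had the same lowest array (control replicate 2) and highest array (estradiol replicate 2).

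FBLN1 stood at -3.10, -2.21, -2.69 and -2.83 in estradiol+BCO fetuses, at -2.33, -2.06, -2.69 and -2.59 in estradiol fetuses, at -2.42, -2.27, -2.04 and -2.53 in BCO fetuses and at -2.37, -2.79, -2.40 and -2.36 in controls. Its means were -2.71 ± 0.37, -2.42 ± 0.28, -2.32 ± 0.22 and -2.48 ± 0.20 (SD, n = 4 each) in the same order of groups, and all groups overlapped. Over the 16 arrays its highest signal was 2.09 times its lowest. That ratio was 2.95 for COL1A2, 3.48 for COL3A1 and 2.26 for DCN.

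TTR behaved unlike the matrix genes. It stood at 1.07, -0.40, 0.81 and -2.53 in estradiol+BCO fetuses, at 0.17, -0.46, -1.11 and 2.06 in estradiol fetuses, at 0.41, 3.84, 0.19 and -1.73 in BCO fetuses and at 2.17, 3.68, 1.16 and 0.55 in controls. Its signal was 82.9 times as high in BCO replicate 2 as in estradiol+BCO replicate 4. Fetuses given the same treatment differed widely: the ratio of highest to lowest was 12.1 within the estradiol+BCO group, 9.01 within the estradiol group, 47.7 within the BCO group and 8.75 within controls. The means were -0.26 ± 1.64, 0.17 ± 1.37, 0.68 ± 2.32 and 1.89 ± 1.37 (SD, n = 4 each) in estradiol+BCO, estradiol, BCO and control fetuses, an order whose neighbours lay closer together than 1 SD. Between slides TTR differed by -1.39 ± 0.72 (SE, slide 2 minus slide 1, groups in the model), which did not pass (limma adjusted p = 0.316).

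**Figure D1:**
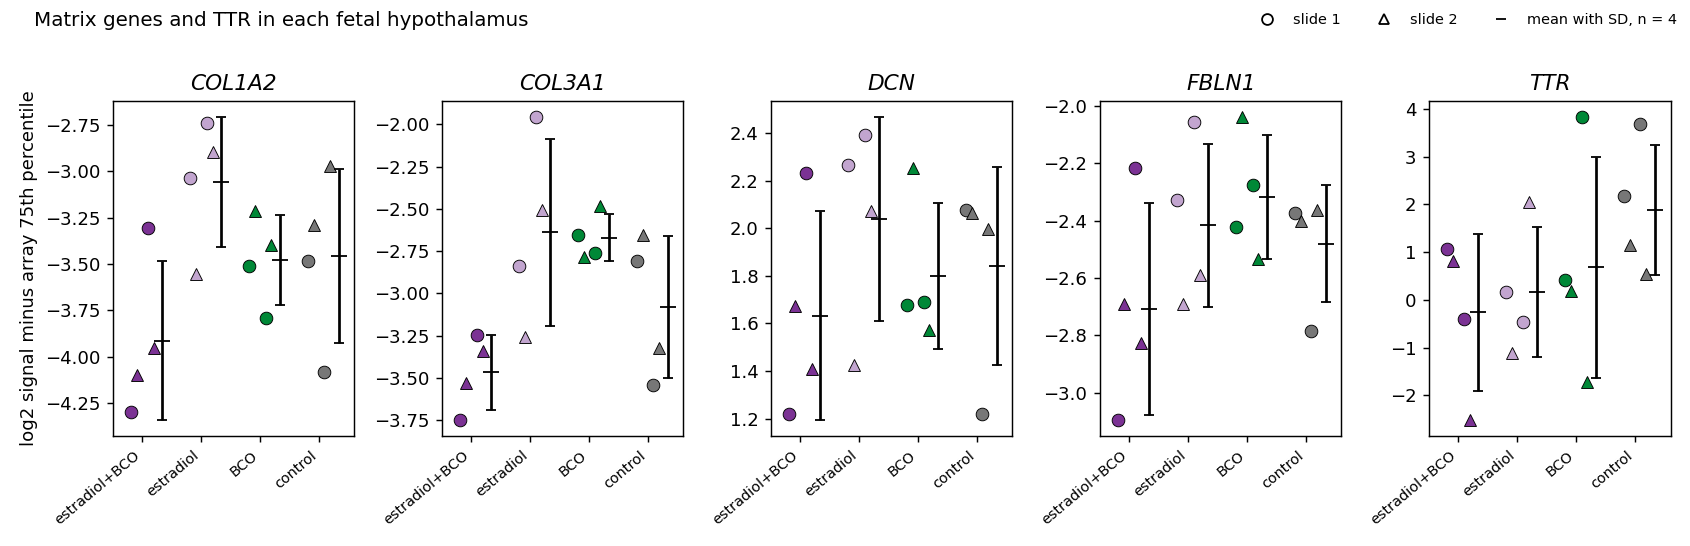
Log2 signal minus the array's 75th percentile (vertical axis, a separate scale in each panel) of the brightest probe of COL1A2, COL3A1, DCN, FBLN1 and TTR in each fetus, by group. Circles are arrays of slide 1, triangles arrays of slide 2, and the bar beside them the mean with SD (n = 4); the TTR panel spans -2.53 to 3.84, and all groups overlap except estradiol+BCO and BCO for COL3A1.

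The spread between fetuses of 1 group was measured as the SD left after the 4 group means were removed. It was 1.72 for TTR, at percentile 99.5 of all 12937 tested probes, with 64 probes at or above it. The 9 matrix probes had SDs of 0.28 to 0.46, percentiles 56.8 to 79.6, against a median of 0.25 for all tested probes. TTR kept that place under normexp background correction (1.62, percentile 99.9). HBB, the beta-globin gene of red blood cells and the only listed blood marker found by name, also varied between fetuses of a group, with an SD of 1.26. Across the 16 arrays HBB and TTR had r = -0.13. Among the listed markers, CGA and FSHB of the pituitary and GHRH and AGRP of the hypothalamus had SDs above that of TTR. These were 3.31, 1.92, 2.34 and 1.89, in this order, and the other listed genes had lower SDs than TTR. CGA, FSHB and GHRH were not well above background on all arrays.

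**Figure D2:**
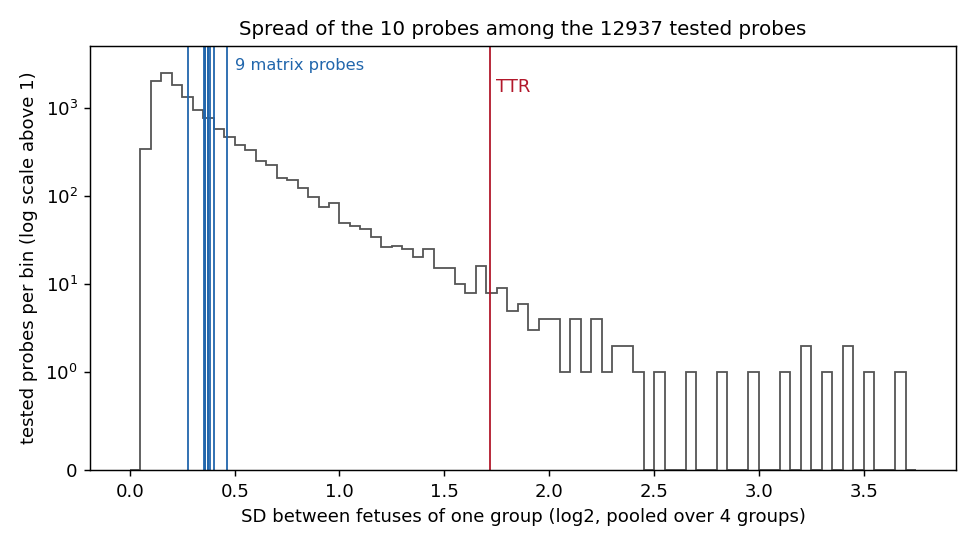
Number of tested probes (vertical axis, logarithmic above 1) by the SD between fetuses of one group, in log2 units (horizontal axis, bins of 0.05). Blue lines mark the 9 matrix probes, between 0.28 and 0.46, and the red line marks TTR at 1.72, in the far tail of the distribution.

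After occlusion without estradiol, 6 of the 10 probes had a lower and 4 a higher mean than in controls, where 47.8% of all tested probes were lower. Of the 10 probes 0 were called in BCO against control, as were 0 of all 12937 tested probes (0%, limma with Benjamini-Hochberg adjustment). At an unadjusted p under 0.05 there were again 0 of the 10, against 7.17% of all tested probes. The 9 matrix probes had a median log2 fold change of -0.0033 (range -0.12 to 0.41), and all tested probes had a median of 0.0091. COL1A2 differed by -0.02 ± 0.26 (SE), with a 95% interval of -0.57 to 0.53, and the DCN probes by -0.04 ± 0.27 and -0.11 ± 0.31. The FBLN1 probes differed by 0.16 ± 0.19 and 0.14 ± 0.24. COL3A1 differed by 0.41 ± 0.25 by A_70_P048191 (95% interval -0.12 to 0.94, adjusted p = 0.796) and by 0.19, -0.0033 and -0.12 by its other probes. TTR differed by -1.21 ± 1.12, with a 95% interval of -3.60 to 1.19. Without BCO replicate 2 the TTR difference was -2.26, and without BCO replicate 4 it was -0.40.

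In fetuses that had received estradiol, all 10 probes had a lower mean after occlusion. No probe of the 10 was called in estradiol+BCO against estradiol, in which 1 of all tested probes was (0.00773%). At an unadjusted p under 0.05, 3 of the 10 were lower, against 4.28% of all tested probes. The 10 probes had a median log2 fold change of -0.42, all tested probes a median of -0.0059, and 51.2% of all tested probes had a lower mean. COL1A2 had the largest difference, -0.86 ± 0.26 (SE; limma adjusted p = 0.430), with a 95% interval of -1.40 to -0.31. COL3A1 differed by -0.83 ± 0.25 by A_70_P048191 (adjusted p = 0.431), by -0.53 and -0.52 by the overlapping pair and by -0.36 by A_70_P006991. The DCN probes differed by -0.41 ± 0.27 and -0.35 ± 0.31, and the FBLN1 probes by -0.29 ± 0.19 and -0.20 ± 0.24. TTR differed by -0.43 ± 1.12, and by 0.33 without estradiol+BCO replicate 4.

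The difference in COL1A2 was -0.91 within slide 1 and -0.80 within slide 2, and that in COL3A1 A_70_P048191 was -1.10 and -0.55. The other COL3A1 probes moved more between slides. They had -0.84 and -0.22 (A_70_P016307), -0.93 and -0.11 (A_70_P016306), and -0.59 and -0.12 (A_70_P006991). The brighter DCN probe had -0.61 and -0.21, and the brighter FBLN1 probe -0.46 and -0.12. TTR differed by 0.48 within slide 1 and by -1.34 within slide 2, in opposite directions. Estradiol+BCO replicate 1 was the lowest of the 16 arrays for 7 of the 9 matrix probes, and estradiol replicate 2 was the highest for 6 of the 9. Without estradiol+BCO replicate 1 the difference was -0.73 for COL1A2 and -0.73 for COL3A1 A_70_P048191. Without estradiol replicate 2 it was -0.75 for COL1A2 and -0.60 for COL3A1 A_70_P048191. For the brighter DCN probe these values were -0.27 and -0.29, and for the brighter FBLN1 probe they were -0.16 and -0.17, in the same order.

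Estradiol without occlusion was set against control. The call count was 0 of the 10 probes and 0 of all 12937 (0%), and 0 of the 10 passed an unadjusted p under 0.05, against 3.29% of all tested probes. COL3A1 differed by 0.44 ± 0.25 (SE) by A_70_P048191 and by 0.35, 0.13 and -0.18 by the other probes, and COL1A2 by 0.40 ± 0.26. The DCN probes differed by 0.20 ± 0.27 and 0.21 ± 0.31, and the FBLN1 probes, with opposite signs, by 0.06 ± 0.19 and -0.08 ± 0.24. Within slide 1 COL1A2 differed by 0.89, COL3A1 A_70_P048191 by 0.78 and the brighter DCN probe by 0.68. Within slide 2 these values were -0.10, 0.11 and -0.28. Without control replicate 2 COL1A2 differed by 0.19 and the brighter DCN probe by -0.0069, and without estradiol replicate 2 COL3A1 differed by 0.21. TTR differed by -1.72 ± 1.12 (limma adjusted p = 1.00), with a 95% interval of -4.12 to 0.68, and by -3.06 within slide 1 and -0.38 within slide 2.

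Among occluded fetuses, estradiol+BCO had a lower mean than BCO for all 10 probes, with 0 called and 0 called among all tested probes (0%). All tested probes had 53.7% with a lower mean. At an unadjusted p under 0.05, 1 of the 10 was lower, against 5.95% of all tested probes. That probe was COL3A1 A_70_P048191, at -0.80 ± 0.25 (SE; limma adjusted p = 0.312). It was also the 1 probe of the 10 whose 4 estradiol+BCO arrays all lay below the 4 BCO arrays, a pattern found in 2.57% of all tested probes. Its difference was -0.79 within slide 1 and -0.80 within slide 2. The other COL3A1 probes differed by -0.40, -0.37 and -0.41 (A_70_P016307, A_70_P016306 and A_70_P006991, in this order). COL1A2 differed by -0.44 ± 0.26, by -0.15 within slide 1 and by -0.72 within slide 2. The FBLN1 probes differed by -0.39 ± 0.19 and -0.42 ± 0.24 and the DCN probes by -0.17 ± 0.27 and -0.04 ± 0.31. The brighter DCN probe had 0.04 within slide 1 and -0.37 within slide 2. TTR differed by -0.94 ± 1.12, and by 0.11 without BCO replicate 2. In the same comparison 11 of 13 hypothalamic neuropeptide genes were higher and 2 lower, where 53.7% of all tested probes were lower. Their median was 1.23, against -0.02 for all tested probes, and 0 were called. Their part in the differences of the 10 probes was not tested. These comparisons share groups of fetuses, so their values for 1 gene are not independent of each other.

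The interaction, the occlusion difference with estradiol minus that without it, asked whether estradiol altered the response of these genes to occlusion. It was negative for the 9 matrix probes, with a median of -0.45 against -0.0045 for all tested probes, and 50.6% of all tested probes had a negative value. No probe of the 10 was called, against 1 of all tested probes (0.00773%). At an unadjusted p under 0.05, 2 of the 10 were negative, against 4.6% of all tested probes: COL3A1 A_70_P048191 at -1.24 ± 0.35 (SE; limma adjusted p = 0.364) and COL1A2 at -0.83 ± 0.36 (adjusted p = 0.653). The other COL3A1 probes had -0.53, -0.71 and -0.23 (A_70_P016307, A_70_P016306 and A_70_P006991, in this order). COL3A1 A_70_P048191 had -1.57 within slide 1 and -0.91 within slide 2, and COL1A2 -1.05 and -0.62. COL3A1 A_70_P016306 had -1.40 and -0.02, and DCN A_70_P030252 had -0.53 and 0.03. Without control replicate 2 that DCN probe had -0.0059. TTR had 0.78 ± 1.58.

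Averaged over both estradiol states, all 10 probes had a lower mean with occlusion, as had 50.6% of all tested probes, and 0 were called (0% of all tested probes). The 9 matrix probes ran from -0.44 to -0.03, while without estradiol their median was -0.0033. The FBLN1 probes had -0.06 ± 0.13 and -0.03 ± 0.17 (SE), and the second changed sign in 6 of 27 alternatives. COL1A2, at -0.44 ± 0.18 (SE; limma adjusted p = 0.606), was the 1 probe of the 10 with an unadjusted p under 0.05, against 3.36% of all tested probes on the lower side. Averaged over both occlusion states, the estradiol difference was called for 0 of the 10 (0% of all tested probes), and 0 passed an unadjusted p under 0.05, against 5.64% of all tested probes. It was -1.33 ± 0.79 for TTR (adjusted p = 0.876), -2.43 within slide 1 and -0.23 within slide 2, and between -0.30 and 0.09 for the 9 matrix probes.

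**Figure D3:**
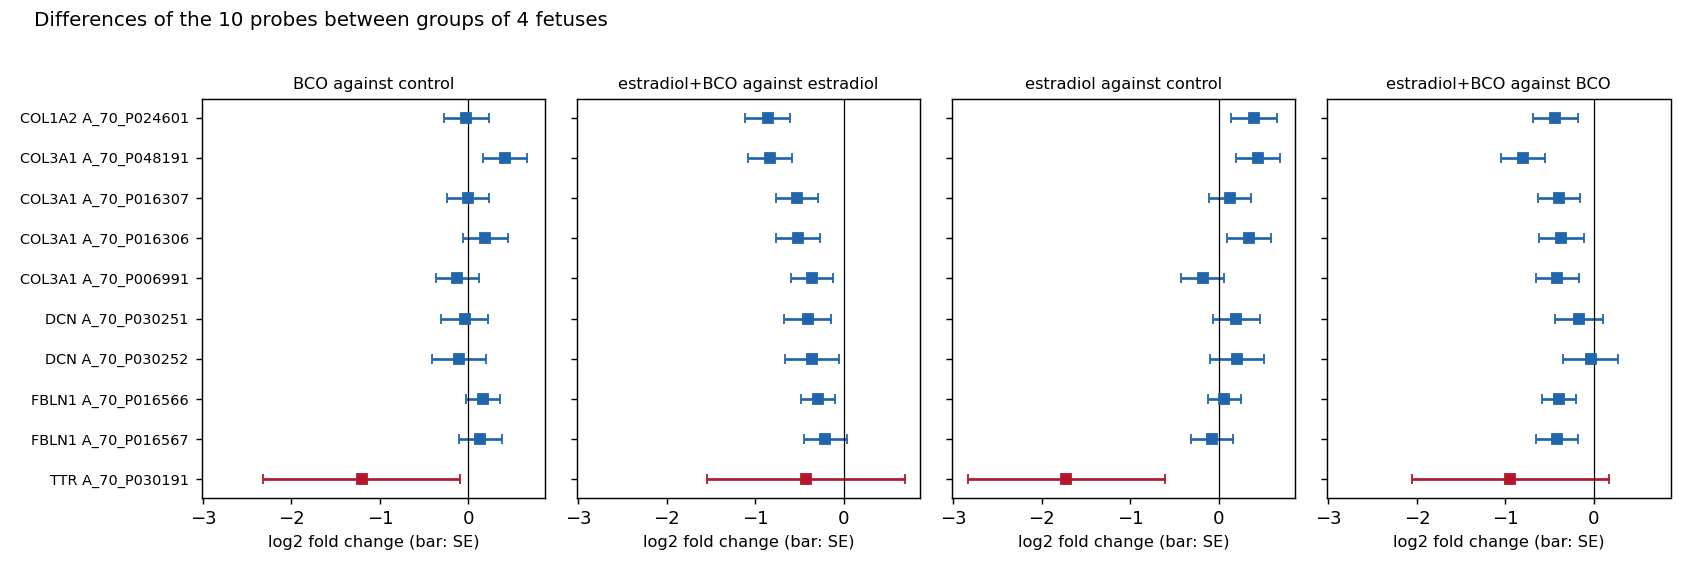
Log2 fold change (horizontal axis) with SE for each of the 10 probes (rows) in the 4 comparisons between groups of 4 fetuses. The 9 matrix probes (blue) all lie below 0 in estradiol+BCO against estradiol, from -0.86 to -0.20, while TTR (red) has an SE of 1.12 in every panel.

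The signals of the matrix genes were positively correlated across fetuses, and their pooled correlations with TTR did not pass. Across the 16 arrays DCN and FBLN1 correlated at r = 0.86 (Spearman's rho 0.87; permutation test, p = 4e-05, adjusted p = 0.0004 over the 10 pairs of genes). COL1A2 and DCN correlated at r = 0.84 (rho 0.81, permutation p = 0.00012, adjusted p = 0.0006). COL1A2 correlated with FBLN1 at 0.74 (rho 0.68) and with COL3A1 at 0.73 (rho 0.67), both with a permutation p adjusted to 0.0034. COL3A1 correlated with FBLN1 at 0.68 (rho 0.54) and with DCN at 0.62 (rho 0.57), with adjusted permutation p of 0.00734 and 0.017. All 6 matrix pairs passed by Pearson's r and all but COL3A1 with FBLN1 (adjusted p = 0.058) by Spearman's rho. The 4 pairs with TTR had r of -0.19 to 0.0059 and adjusted permutation p of 0.697 or more.

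Without the 2 arrays farthest from the median of the first gene, r was 0.80 for DCN with FBLN1 and 0.77 for COL1A2 with DCN, both of which still passed. It was 0.41 to 0.57 for the other 4 matrix pairs, which passed only with those arrays. COL1A2 with COL3A1 and with FBLN1 stayed under an unadjusted permutation p of 0.05 (0.0413 and 0.0355). Leaving out the ends of a gene's range can by itself lower r where genes vary together. The values cannot tell this apart from correlations that rested on the 2 arrays left out. After group means were removed the matrix pairs had r of 0.55 to 0.92, and 3 of 6 passed. Within slide 1 r was 0.71 to 0.95, with 5 of 6 passing an exact permutation test over 8 arrays, and within slide 2 it was 0.40 to 0.83, with 0 passing. The pairs with TTR had r of -0.65 to -0.33 within slide 1 and of 0.24 to 0.77 within slide 2, opposite in sign. None passed after adjustment in either slide, and DCN with TTR on slide 2 (r = 0.77) had an exact permutation p of 0.0329 before it. All arrays share the scaling to the 75th percentile, and with quantile normalization the matrix pairs had r of 0.64 to 0.88.

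**Figure D4:**
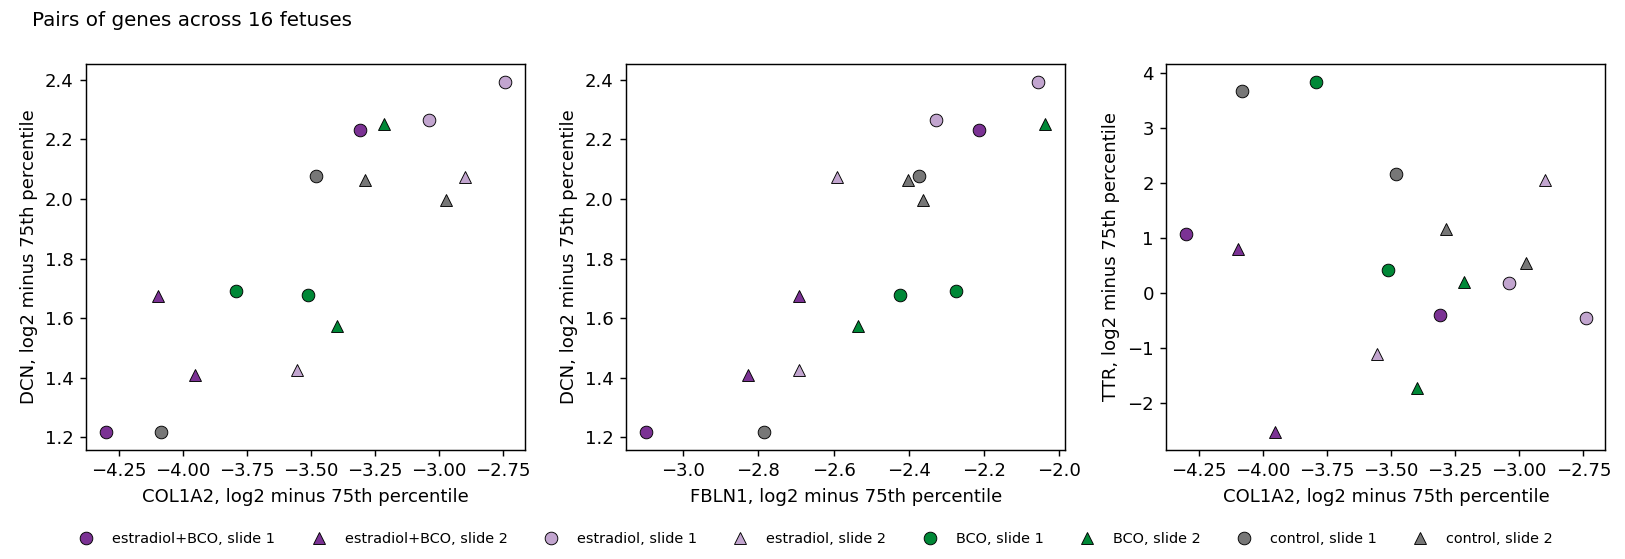
Scaled log2 signal of DCN against COL1A2 (left), DCN against FBLN1 (middle) and TTR against COL1A2 (right), 1 point per fetus, coloured by group, with circles for slide 1 and triangles for slide 2. The first 2 panels rise together (r = 0.84 and 0.86), with estradiol+BCO replicate 1 at the lower left and estradiol replicate 2 at the upper right, and the third has r = -0.19.

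Among probes of other named genes, those most like each member over the 16 arrays were ranked by Pearson's r, as a description without a test. IGF2, the fetal insulin-like growth factor made by meninges and choroid plexus among other tissues, was closest to COL1A2 (r = 0.85). BMP4, a bone morphogenetic protein, came next (r = 0.85), followed by DCN. Closest to DCN were FBLN1, IGF2 (0.85) and COL1A2. Closest to FBLN1 were DCN, SERPINF1 (0.83), which encodes the secreted serpin PEDF, and TIMP1 (0.80), an inhibitor of matrix metalloproteinases. COL3A1 had partners at lower r, namely COL1A2 (0.73), FBLN1 (0.68) and the interleukin-13 receptor chain IL13RA1 (0.67). The median r with all other tested probes was between -0.02 and 0.03 for each of the 5 genes. TTR was closest to SFXN1, a mitochondrial serine carrier (0.72), to the integrin subunit ITGB5 (0.68) and to NOG, which encodes the BMP antagonist noggin (0.68).

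IGF2 varied 11.5-fold and BMP4 7.21-fold over the 16 arrays by these probes, more than any of the matrix genes, while TIMP1 varied 1.71-fold. In estradiol+BCO against estradiol IGF2 differed by -1.36 ± 0.72 (SE; limma adjusted p = 0.684), BMP4 by -0.77 ± 0.50 and SERPINF1 by -0.60 ± 0.35. None of them was called in any comparison.

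**Figure D5:**
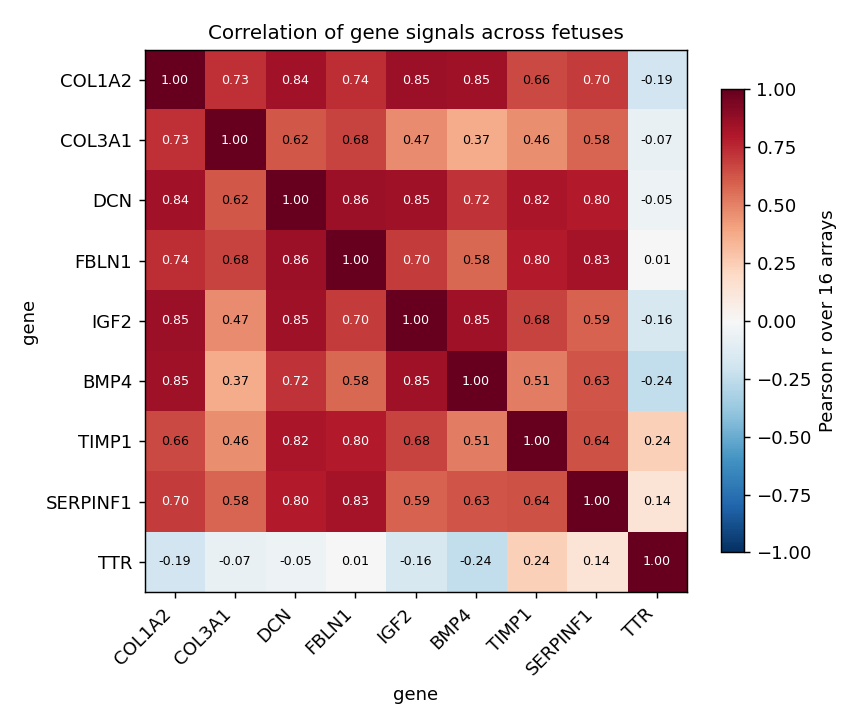
Pearson's r over the 16 arrays (colour and number in each cell) between the brightest probes of the 5 genes and the probes of IGF2, BMP4, TIMP1 and SERPINF1, which were chosen for their likeness to COL1A2, DCN or FBLN1. COL1A2, DCN and FBLN1 have r of 0.58 to 0.85 with all 4 of them, COL3A1 0.37 to 0.58, and TTR -0.24 to 0.24.

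The 11 other tested probes whose description holds the word collagen, for a sheep collagen or by likeness to one of another mammal, spanned r of -0.02 to 0.83 with COL1A2, and they were listed after their values were seen. A pair of probes like the bovine alpha-1 chain of type I collagen, the partner chain of COL1A2 in the same fibre, had r of 0.79 and 0.83 with COL1A2 and of 0.84 and 0.84 with DCN. The probes like collagen types XVI, XII, II and V had r of 0.81, 0.67, 0.48 and 0.45 with COL1A2, in this order. The COL6A1 probes disagreed with each other (0.68 and -0.02), and COL4A3 had 0.31. Type IV collagen forms the basement membrane of vessels: the probes like its alpha-1 and alpha-2 chains had r of 0.14 and 0.11 with COL1A2 and of 0.62 and 0.10 with COL3A1. The alpha-1(IV) probe differed by 0.63 in BCO against control (limma adjusted p = 0.529) and by -0.63 in estradiol+BCO against BCO (adjusted p = 0.364), in the same directions as COL3A1 A_70_P048191. In estradiol+BCO against estradiol the type I pair differed by -0.49 and -0.45 (adjusted p = 0.766 and 0.757) and type XVI by -0.46. COL6A1 differed by -0.59 by A_70_P041681 (adjusted p = 0.814) and by -0.93 ± 0.72 (SE) by A_70_P041682. Both of its probes were dim, with median levels of -7.02 and -7.18. In that comparison type XII differed by -0.08, type II by -0.11, type V by 0.0059, COL4A3 by -0.15 and the type IV pair by -0.16 and 0.11.

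Lists of related genes were read by their counts and medians. Of 16 meningeal marker genes 5 had a named probe and were tested (ALDH1A1, PTGDS, GJB2, BMP4 and BMP7), and 0 were called in any of the 7 comparisons. ALDH1A1, a retinoic acid-making enzyme, had r of 0.63 with COL1A2. It differed by -0.99 ± 0.69 (SE; limma adjusted p = 0.768) in estradiol+BCO against estradiol. PTGDS, the prostaglandin D synthase of meninges, choroid plexus and oligodendrocytes, stayed between 5.75 and 6.46 on all arrays and had r of -0.29 with COL1A2. GJB2, a gap junction protein of meningeal cells, had r of -0.10 with COL1A2. In estradiol+BCO against estradiol 3 of the 5 were lower and 2 higher, with a median of -0.29 (range -0.99 to 0.18).

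For the choroid plexus 5 of 26 listed markers were tested: CP (ceruloplasmin), TF (transferrin), the tight junction claudins CLDN1 and CLDN3, and ATP1B1, a subunit of the sodium pump. None is specific to that epithelium, and no probe here carried the name of AQP1, CLIC6, KL or FOLR1, which mark it more closely. Their r with TTR was -0.04 for CP, 0.27 for TF, 0.09 for CLDN1, 0.38 for CLDN3 and 0.27 for ATP1B1. In estradiol against control, where TTR differed by -1.72, the list had 2 higher and 3 lower members with a median of -0.02: CP differed by 0.98, TF by 0.48, CLDN3 by -0.10, CLDN1 by -0.06 and ATP1B1 by -0.02. In BCO against control 4 of the 5 were higher and 1 lower, with a median of 0.08, and 0 were called in any comparison. TTR was thus the only close marker of choroid plexus found by name. The 13415 probes without a name were not searched for others by their descriptions. A share of choroid plexus in the samples was not tested by other genes.

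The wider matrix lists were also without calls. Of 47 genes of matrix and collagen assembly only COL2A1, COL6A1, BGN and SPP1 had a named probe that was tested, beside 9 of 18 matrix proteases and inhibitors and 21 of 30 genes of TGF-beta and fibroblast signalling. No gene of these lists was called in any of the 7 comparisons. Named by lowest p, SPP1 (osteopontin, a matrix phosphoprotein) differed by -0.53 ± 0.17 (SE) in BCO against control (limma adjusted p = 0.493), and MMP2, a gelatinase, by 0.29 ± 0.15. SMAD3, a transducer of TGF-beta signals that was well above background on 6 arrays, differed by 0.73 ± 0.37. TIMP3, a matrix-bound protease inhibitor, differed by -0.36 ± 0.10 in estradiol+BCO against estradiol (adjusted p = 0.388) and by -0.38 ± 0.10 in estradiol+BCO against BCO (adjusted p = 0.268). CLDN1 differed by -0.66 ± 0.23 and TIMP2, another protease inhibitor, by 0.25 ± 0.12 in the first of these comparisons. In the second, TGFB2, a TGF-beta ligand, differed by -0.50 ± 0.19 and BMP7 by -0.46 ± 0.18. In estradiol against control SMAD2 differed by 0.17 ± 0.09, GJB2 by -0.39 ± 0.21 and TIMP2 by -0.22 ± 0.12.

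By the same rule the averaged and interaction comparisons named further genes. BCO averaged over estradiol gave SPP1 (-0.35 ± 0.12, SE), CLDN1 (-0.44 ± 0.16) and FGF10, a fibroblast growth factor (-0.34 ± 0.14). Estradiol averaged over BCO gave TGFBR2, a TGF-beta receptor (-0.36 ± 0.13), BMP7 (-0.29 ± 0.13) and TIMP3 (-0.17 ± 0.07). The interaction gave TIMP3 (-0.42 ± 0.15), the membrane protease MMP14 (-0.57 ± 0.24) and TGFB2 (-0.63 ± 0.26). TIMP3 had r of 0.52 with COL1A2 and 0.58 with COL3A1.

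The tissue label and neighbouring tissues were read from the other marker lists. Of the 25 hypothalamic neuropeptide genes listed 13 were tested, and their mean level per array was -2.29 to -0.52 in estradiol+BCO fetuses, -2.09 to 0.26 in estradiol fetuses, -3.50 to -2.30 in BCO fetuses and -0.93 to -0.33 in controls. In BCO against control 12 of the 13 were lower (median -1.70), as were 6 of 6 pituitary markers (median -0.98), where 47.8% of all tested probes were lower. At an unadjusted p under 0.05 there were 10 of the 13 neuropeptides and 1 of the 6 pituitary markers, against 7.17% of all tested probes, and 0 of either list were called. The matrix probes had a median of -0.0033 in that comparison. All 10 probes had a lower mean in estradiol+BCO against estradiol. There the neuropeptides had a median of -0.10 (range -2.22 to 1.64) and pituitary markers -0.26 (-4.76 to 0.14). The 7 endothelial and mural markers had 0.07 (-0.38 to 1.41) and 4 astrocyte and ependymal markers -0.12 (-0.34 to -0.04). The 6 pituitary markers had r with COL1A2 of -0.07 (LHB) to 0.66 (FSHB, well above background on 9 arrays). The part of these tissues in the differences of the 10 probes was not tested.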

How the data were processed

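Total RNA (500 ng per array, RNA integrity numbers 7.4 to 8.4 per the labels' protocols) of 16 hypothalami was labelled with Cy3 and hybridised to 1-colour Agilent ovine arrays, 1 fetus each. Per the file headers, the authors read the arrays with Agilent Feature Extraction 10.1.1.1, and the deposited processed signal is an intensity after background subtraction and spatial detrending. Spot flags were also taken from these files. The series' deposited value table holds log2 values, found here to be the log2 processed signal minus each array's median over all features (direction: higher is brighter), and served as an alternative. No genome build is given in the sources used here, and no coordinates were used. The array is annotated by gene names, gene numbers and contig descriptions, which were matched to a table of sheep genes of assembly ARS-UI_Ramb_v3.0 for names alone. Through accessions 718 of the 15008 probes were named, through symbols 484, through gene numbers 139 and through synonyms 20. A further 224 kept their file name, 13415 had none, and 8 with conflicting names were left out of the lists.

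Spots of a probe were averaged on the log2 scale, outlier spots (2 to 36 per array) set to missing, and each array's 75th percentile (2047 to 2939 units) subtracted. The member probes had no missing value. Probes well above background on at least 4 arrays (12937) were fitted with limma 3.58.1 in R 4.3.3 (group means over all 16 arrays, empirical Bayes, 7 comparisons, 2-sided), and called at a Benjamini-Hochberg adjusted p under 0.05 over all tested probes. The fit was tested on simulated data, with log2 changes of 1 or 2 placed in probes whose SD lay below the median. It recovered 97 of 100 and 100 of 100 of them, with 8 false calls. The member probes all had SDs above that median, so recovery of changes in such probes was not tested. Correlations used 2-sided permutation tests (100000 resamples, scipy 1.17.1) or, within a slide, all 40320 orders of 8 arrays.

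All probes of the 5 genes are named. From the lists, the 3 genes with the lowest p in each comparison from the matrix, protease, TGF-beta, meningeal and choroid plexus lists are named, plus the choroid plexus markers, and by likeness the 3 probes of other named genes with the highest r. Collagen contigs and the meningeal markers were named after their values were seen. The members and lists were chosen with earlier results of these data known. Labels say that groups held separate fetuses. The number of arrays limits the precision. Alternatives were quantile and median scaling, normexp background correction (offset 50), other dim-probe filters, slide or replicate blocks, each slide alone, the deposited table, trended robust moderation, only the compared groups, and leaving out each array.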

Additional observations from a re-analysis of the deposited data

Results flagged for a closer look

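Of the 40 sets formed by 10 probes and 4 groups, 6 held 1 fetus far from the other 3, by a gap to its nearest neighbour that took up more of the group's range than Dixon's 95% critical value for 4 samples allows. Chance alone flags about 1 group in 20, and probes of 1 gene repeat each other. Control replicate 2 was low for DCN by both probes, at 1.22 against 2.0 to 2.08 in the other controls (A_70_P030251) and at -0.58 against 0.36 to 0.39 (A_70_P030252). The same fetus was low for FBLN1 A_70_P016566, at -2.79 against -2.40 to -2.36, and had 3.68 for TTR, the highest control value. Estradiol replicate 3 was low for DCN A_70_P030252, at -0.54 against 0.59 to 0.77 in the other estradiol fetuses. Estradiol replicate 2 was high for COL3A1 A_70_P016307, at -3.59 against -4.34 to -4.26. Estradiol+BCO replicate 2 was high for FBLN1 A_70_P016567, at -2.16 against -3.13 to -3.05, the other estradiol+BCO fetuses.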

How the results depend on the processing

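No call of the 10 probes changed: 0 were called in each of the 7 comparisons under every alternative run. Of 1930 alternative fold changes of these probes 89 had the opposite sign, 5 of them for a difference at least as large as its SE: COL1A2 (-0.10) and COL3A1 A_70_P016306 (-0.21) in estradiol against control on slide 2, COL3A1 A_70_P006991 for occlusion averaged (0.0069) on slide 2, and FBLN1 A_70_P016566 (0.040) and A_70_P016567 (0.10) for estradiol averaged on slide 1. The cause was not tested. With each slide alone 8 arrays enter a fit.

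Counts over all probes moved as follows. BCO against control, with 0 calls, had 14 on slide 2 and 3 with the groups compared alone. The 1 call of estradiol+BCO against estradiol became 0 with median centring, on either slide, with the replicate block, with the deposited log2 table and with the groups alone. Estradiol against control had 1 and estradiol+BCO against BCO 14 on slide 2, and estradiol averaged had 1 on slide 1. The 1 call of the interaction became 0 with quantile normalization, median centring, no filter, either slide and the deposited table, and 3 with slide or the replicate block. Leaving out 1 array gave 0 to 6 calls over all probes for BCO against control, 0 to 5 for estradiol+BCO against BCO, 0 to 3 for the interaction, 0 to 1 for estradiol+BCO against estradiol and for estradiol averaged, and 0 to 0 for occlusion averaged and estradiol against control, with 0 to 0 for the 10 probes throughout. The 6 calls came without BCO replicate 2, and the 5 and the 3 without BCO replicate 1. The groups alone were fitted for the 4 direct comparisons.

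No pairing of fetuses by replicate number was detected, though with 16 arrays a weak pairing could go unseen. Same-numbered arrays of different groups had correlated deviations of -0.03 to 0.27 (median 0.12, 20 of 24 pairs over 0.1). Other numbers on the same slide had -0.03 to 0.34 (median 0.14, 17 of 24), and 3 of 16 arrays matched their own number best. With the replicate block 0 of the 10 probes were called.

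Correlations no longer passed for COL1A2 with COL3A1 (0.61 centred on group means, 0.62 slide 2, 0.56 without 2 arrays), COL1A2 with DCN (0.71 slide 2), COL1A2 with FBLN1 (0.60 slide 2, 0.57 without 2 arrays), COL3A1 with DCN (0.63 centred, 0.71 slide 1, 0.45 slide 2, 0.41 without 2 arrays), COL3A1 with FBLN1 (0.55 centred, 0.40 slide 2, 0.44 without 2 arrays) and DCN with FBLN1 (0.83 slide 2). With 8 or 14 arrays fewer samples enter. All 6 matrix pairs passed with normexp (0.59 to 0.68), quantile normalization (0.64 to 0.88) and COL3A1 by its brightest probe of that name (0.61 to 0.86, chosen after seeing the data). With 4 fetuses per group the 95% interval of a difference was about 0.5 either side for the matrix probes and over 2 for TTR.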
